A study of Mus musculus with 6 samples.

Results

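The keratin gene family was examined in RNA-seq of fetal mouse leg muscle. Members were the protein-coding genes whose symbol is Krt followed by a number and, in some, a letter. There were 53 such genes among 21974 protein-coding genes and 56262 genes listed in all. The genes were chosen by symbol, and the family was selected on the measured differences between KO and WT levels in these same samples, so the KO against WT values of its members are a description and carry no p-value.

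The study compared leg muscle of wild-type (WT) fetuses with that of fetuses lacking *SYISL* (KO), a long noncoding RNA gene that overlaps *Synpo2*, at embryonic day 18.5, to ask what *SYISL* does in embryonic muscle. There were 3 WT and 3 KO samples, and the labels name no treatment. Parents of a fetus shared its genotype, so WT and KO fetuses came from different dams and litters, and effects of the fetal genotype, the maternal genotype and the litter cannot be told apart. WT mice came from an animal centre and KO mice from a line made earlier, and strain, sex, the number of litters, the pooling of fetuses and whether replicates are separate animals are not given in the sources used here, so the errors measure the spread between these samples.

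Keratins are the intermediate filament proteins of epithelial cells. A type I keratin pairs with a type II keratin to form a filament, and each layer or kind of epithelium uses its own pairs. In the epidermis, dividing basal cells make *Krt5* and *Krt14*, and cells that leave the basal layer switch to *Krt1* and *Krt10*. Simple epithelia make *Krt8* and *Krt18*, while the hair follicle makes one set of keratins in its inner root sheath and another in the hair shaft. Skeletal muscle fibers use desmin in their place.

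Total counts ranged from 82054811 to 102233181 per sample, and a count of 0 allowed up to 3 counts, or 0.0293 to 0.0366 CPM (counts divided by the library total and scaled to a common size). That limit, like the counting intervals given for scarce genes, covers counting error only. Levels are CPM on TMM-scaled libraries, and a gene was called higher or lower in KO if edgeR's quasi-likelihood test over 22071 genes gave it an adjusted p below 0.05 together with a fold over 1.5. No gene symbol matched *SYISL*, so its deletion was not checked with these counts. The tissue label was checked with 10 skeletal muscle genes. Their summed level was 19475 to 21769 CPM in WT and 41640 to 50729 CPM in KO. In KO, 7 were called higher and 0 lower, where 8.31% of all genes tested were called higher. *Myh3*, *Myog* and *Pax7* were not called, with log2 fold changes of -0.04, -0.22 and -0.13. Between samples of one genotype, chi-square values averaged 5.17 to 35.5 per gene with 1 degree of freedom, above counting noise.

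Keratin transcripts were much more abundant in WT than in KO leg muscle. The family took 1.53%, 2.25% and 1.73% of all counts in WT, against 0.0703%, 0.0736% and 0.0693% in KO. Summed over the family, WT samples averaged 17965 ± 3926 CPM and KO samples 728 ± 32.2 CPM (SD, n = 3 per genotype), 24.7-fold apart with no overlap. In bulk samples, fewer cells of a type and less RNA per cell cannot be told apart.

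The family did not move as a block. Of the 53 genes, 40 passed the filter on low counts, and 26 of these were called lower in KO, 8 were called higher and 6 were not called. Over all genes tested, 16.7% were called, 8.39% lower and 8.31% higher. Among the 40 tested, the KO samples lay entirely below the WT samples for 26 keratin genes and entirely above them for 9. The same held for 28.5% and 27.3% of all genes tested. The contrast was used in choosing the family, and nothing is read from these shares. Of the 40, 10 passed the filter through WT samples alone (*Krt2*, *Krt6b*, *Krt9*, *Krt12*, *Krt24*, *Krt31*, *Krt32*, *Krt33b*, *Krt34* and *Krt84*) and 6 through KO samples alone (*Krt25*, *Krt27*, *Krt35*, *Krt71*, *Krt73* and *Krt83*). For those called, a call in the other direction was not open. The median log2 fold change of KO over WT was -2.22 over the 40 keratin genes and -0.0041 over all genes tested. The nearest call to the fold threshold was *Krt79* at -0.76, and the nearest value without a call was *Krt222* at 0.47.

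**Figure D1:**
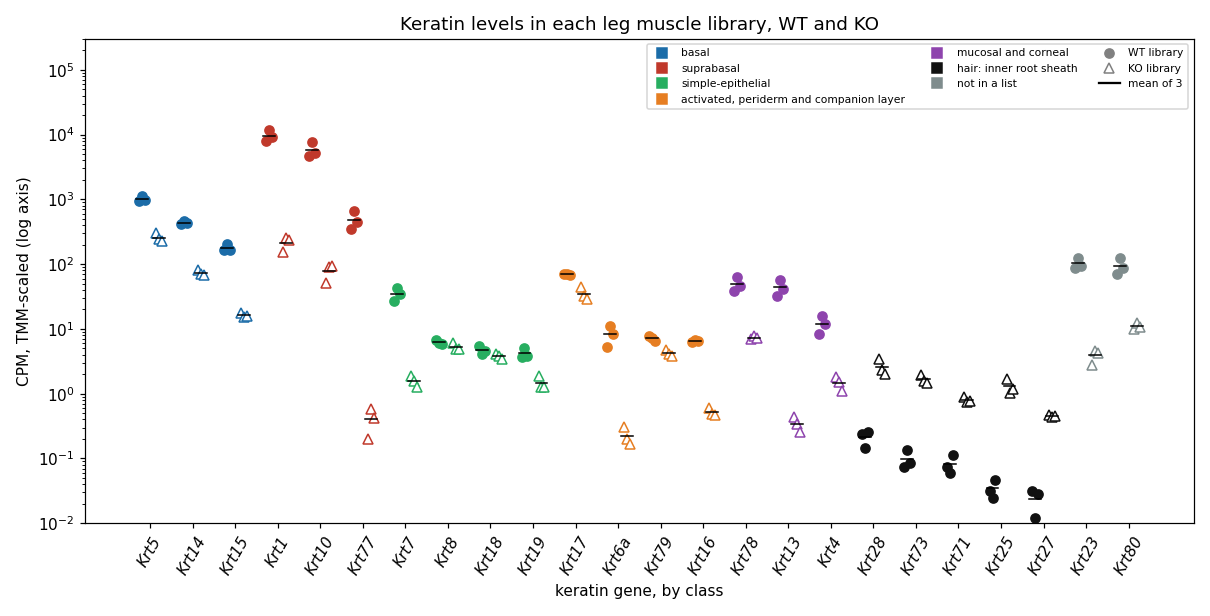
Level of the keratin genes with a mean of at least 5 CPM in either genotype, with *Krt18*, *Krt19* and the 5 inner root sheath genes called higher, in TMM-scaled CPM on a log axis. Filled circles are the 3 WT samples, open triangles the 3 KO samples, lines their means and colors the classes. Points for *Krt8* and *Krt18* overlap between genotypes, while those of *Krt1*, *Krt10* and *Krt77* are far apart and those of *Krt25*, *Krt28* and *Krt73* lie higher in KO.

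All 3 basal keratins fell in KO, by less than *Krt1* and *Krt10*. *Krt5*, the type II keratin of the basal layer, was at 935, 1108 and 960 CPM in WT and 301, 244 and 226 CPM in KO. Its log2 fold change was -1.96 (SE 0.11), or 3.89-fold lower. *Krt14*, the type I partner of *Krt5*, was at 417, 461 and 424 CPM in WT and 79.95, 69.6 and 67.1 CPM in KO. The groups did not overlap for either partner, and *Krt14* was 6.01-fold lower in KO, with a log2 fold change of -2.59 (SE 0.074). *Krt15*, a type I keratin of basal cells and of the follicle bulge, was at 163, 202 and 165 CPM in WT and 17.5, 15.4 and 15.7 CPM in KO. It was the most reduced of the 3, at 10.9-fold. Within KO, all 3 were highest in replicate 1, and within WT all 3 were highest in replicate 2.

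The 5 suprabasal keratins all fell, and they included the most abundant members of the family. *Krt1*, the type II keratin of the spinous layer, was at 7931, 11748 and 9044 CPM in WT and 152, 258 and 237 CPM in KO. Means were 9575 ± 1963 and 215 ± 56.1 CPM (SD, n = 3 for both), 44.4-fold apart. *Krt10*, its type I partner, was at 4637, 7631 and 5244 CPM in WT and 51.7, 91.6 and 94.5 CPM in KO. The fall of *Krt10* was 73.6-fold, with a log2 fold change of -6.20 (SE 0.30), and that of *Krt1* was -5.47 (SE 0.24) on the same scale. Over 558 bp the span of *Krt10* overlaps that of an opposite-strand gene, but its transcripts share no window of 100 bases with other genes. Reads of any shorter exon overlap could not be separated if strand was not used. The spread within KO was wide for both, since replicate 1 lay well below the other samples.

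*Krt77*, a type II suprabasal keratin related to *Krt1*, showed the largest fold of any keratin with counts in both genotypes. Its counts were 33439, 54929 and 46862 for WT, against 19, 55 and 41 for KO. The mean level was thus 487 ± 160 CPM for WT and 0.400 ± 0.188 CPM for KO, 1217-fold apart. *Krt2*, a type II keratin of the uppermost living layers, was scarce, with 64, 98 and 94 counts in WT, against 0 in every KO sample. Against a limit of 3 counts per KO library, *Krt2* was at least 29.2-fold lower in KO. *Krt9*, a keratin of palm and sole skin, had 14 to 17 counts in WT, against 2 to 3 in KO, and the summed counts differed 5.82-fold (95% exact interval 2.72 to 14.3). The median log2 fold change of the class was -6.20, or -5.47 with *Krt2* at its limit.

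The keratins that remained in KO had another makeup. To compare genes, CPM were divided by the length of the gene's exons in kb. In WT the order was *Krt10* (2761 ± 749 CPM per kb), *Krt1* (2169 ± 445), *Krt5* (456 ± 42.6), *Krt14* (247 ± 13.2) and *Krt77* (166 ± 54.7). The ranges of *Krt10* and *Krt1* overlapped, and their order turned when the longest transcript was used as the length. The neighbours from *Krt1* down to *Krt77* did not overlap. In KO, *Krt5* came first (117 ± 17.9 CPM per kb), followed by *Krt1* (48.8 ± 12.7), *Krt14* (41.1 ± 3.87), *Krt10* (37.5 ± 11.3) and *Krt17* (22.5 ± 5.08). *Krt5* stood clear of the rest in KO, while the ranges from *Krt1* to *Krt17* overlapped from neighbour to neighbour. By level per kb, *Krt77* was at rank 5 of the 53 genes in WT and at rank 27 in KO.

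Summed per kb, the suprabasal class held 81.6%, 85.4% and 83.0% of the keratin level of WT samples, compared with 19.5%, 33.7% and 34.4% for KO. The basal class held 15.0%, 11.6% and 13.7% for WT, compared with 63.9%, 52.8% and 52.4% for KO. These ranges did not overlap, and *Krt5* alone went from 6.63% to 8.45% of the keratin level in WT to 36.0% to 45.5% in KO. The inner root sheath class took at most 0.00550% in WT and 1.10% to 1.51% in KO. Shares sum to the whole, so a higher share of one class goes with a lower share of another.

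**Figure D2:**
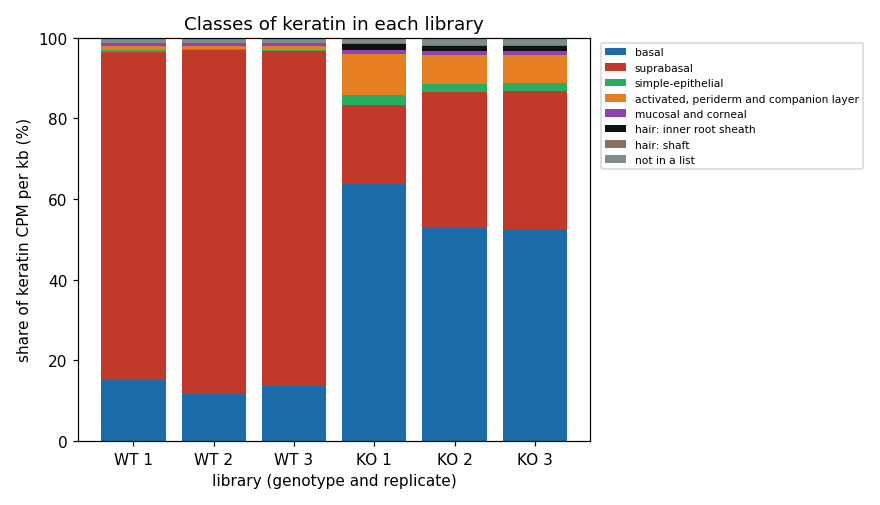
Share of the summed keratin level per kb of exon held by each keratin class, in percent, as 1 stacked bar per sample for 3 WT and 3 KO samples. The suprabasal class holds at least 81.6% in each WT sample and at most 34.4% in each KO sample.

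Ratios of suprabasal to basal keratins were computed within each sample and do not depend on library scaling. *Krt10* over *Krt14*, both type I and both per kb, was 9.24, 13.8 and 10.3 in WT and 0.538, 1.09 and 1.17 in KO. *Krt1* over *Krt5*, both type II, was 4.22, 5.28 and 4.69 in WT and 0.251, 0.525 and 0.521 in KO. Both ratios were lower in every KO sample than in any WT sample, and both were lowest in KO replicate 1.

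The pairs themselves also shifted. *Krt10* over *Krt1* was 1.26 ± 0.0812 in WT and 0.763 ± 0.0632 in KO (SD, n = 3 each). *Krt14* over *Krt5* was 0.543 ± 0.0209 in WT and 0.353 ± 0.0198 in KO. In both layers the type I partner was thus reduced more than the type II partner, without overlap between genotypes. Summed over the family, type I over type II was 1.14 ± 0.0549 in WT and 0.686 ± 0.0354 in KO. By contrast, *Krt18* over *Krt8* was 1.03 ± 0.108 in WT and 0.971 ± 0.0702 in KO, and the ranges overlapped.

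**Figure D3:**
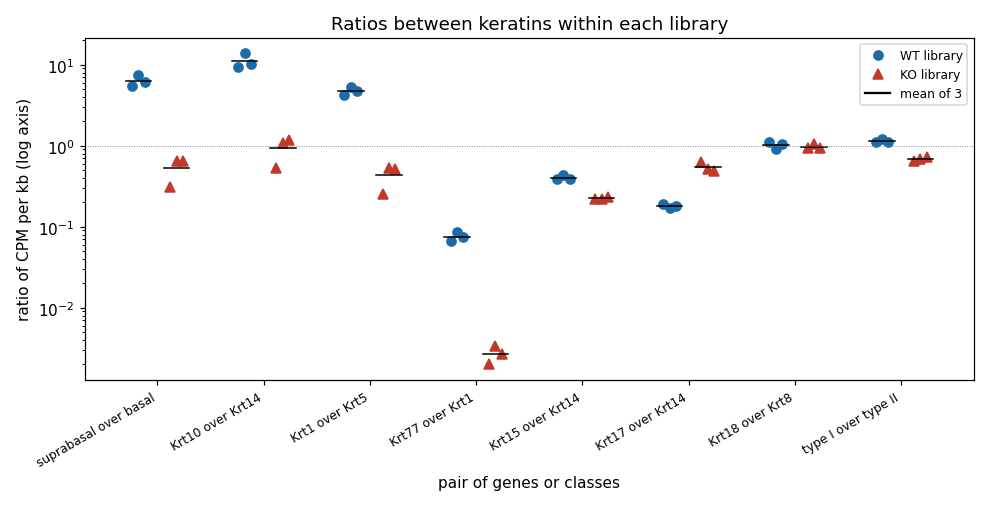
Ratios of keratin levels per kb of exon on a log axis, for 3 WT samples (circles) and 3 KO samples (triangles), with lines for the means and a dotted line at a ratio of 1. The ratios of suprabasal to basal and of type I to type II keratins lie lower in all KO samples, *Krt17* over *Krt14* lies higher, and *Krt18* over *Krt8* overlaps.

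Keratins of activated epidermis, periderm and the companion layer of the hair follicle were mixed. *Krt17*, a type I keratin of periderm and skin appendages, was at 70.1, 69.3 and 68.4 CPM in WT and 43.9, 31.7 and 29.1 CPM in KO. It was 1.98-fold lower, and *Krt17* over *Krt14* per kb was 0.171 to 0.190 in WT and 0.492 to 0.622 in KO. *Krt79*, a type II keratin of the follicle's upper canal, was at 7.72, 7.24 and 6.40 CPM in WT and 4.65, 4.08 and 3.84 CPM in KO, 1.70-fold lower. *Krt16*, a type I keratin of stressed epidermis, was at 6.24, 6.74 and 6.44 CPM in WT and 0.608, 0.483 and 0.463 CPM in KO, 12.5-fold lower, and shares 24.3% of its windows of 100 bases with other genes. None of these 3 overlapped between genotypes. *Krt6a*, a type II partner of *Krt16* and *Krt17*, had 503, 923 and 880 counts in WT, against 29, 19 and 16 in KO. Its level was 36.9-fold lower in KO, although *Krt6a* shares 42.9% of its distinct 100-base windows with other genes, 26.6% with *Krt6b*, so the counts of these paralogs are uncertain. *Krt6b* had 49 to 77 counts in WT, against 3 to 4 in KO. *Krt75*, a type II keratin of the companion layer, went the other way. It had 21, 17 and 15 counts in WT, against 64, 68 and 50 in KO, and rose by 1.75 (SE 0.23) on the log2 scale.

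Of 6 keratins known from mucosal and corneal epithelium, 5 were tested and all 5 fell. *Krt78*, a type II keratin also made in mouse epidermis, was at 39.0, 64.0 and 45.6 CPM in WT and 6.97, 7.70 and 7.34 CPM in KO. *Krt13* and *Krt4* form the pair of the suprabasal layers of the mouth and esophagus. *Krt13* had 3063, 4715 and 4378 counts in WT, against 41, 32 and 25 in KO, 127-fold lower. *Krt4* had 785, 1305 and 1247 counts in WT, against 168, 143 and 106 in KO, with a log2 fold change of -3.03 (SE 0.25). The partners therefore did not move by the same amount, although neither overlapped between genotypes. *Krt12*, the corneal keratin, had 247 to 366 counts in WT, against 8 to 22 in KO, and without KO replicate 1 its log2 fold change went from -4.64 to -5.25. Its transcript shares 29.0% of its windows with an antisense gene, and the strand setting of the counting was not given. *Krt24* had 10 to 13 counts in WT, against 2 to 5 in KO, and *Krt76* at most 4 in any sample.

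Abundant keratins outside these lists fell as well. *Krt23*, a type I keratin of several epithelia, was at 87.8, 126 and 94.5 CPM in WT and 2.80, 4.63 and 4.25 CPM in KO. *Krt80*, a type II keratin of many epithelia, was at 71.0, 125 and 88.7 CPM in WT and 10.01, 12.4 and 10.9 CPM in KO. Neither gene overlapped between genotypes, with log2 fold changes of -4.72 (SE 0.19) and -3.10 (SE 0.19). *Krt80* overlaps an opposite-strand gene over 22719 bp, so reads of the pair could not be separated if strand was not used. *Krt222*, a type I keratin gene, was at 1.02, 1.02 and 1.11 CPM in WT and 1.34, 1.46 and 1.55 CPM in KO. It lay higher in each KO sample but was not called. *Krt42*, *Krt88* and *Krt90* had at most 9 counts in any sample.

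The pair of simple epithelium was not called. *Krt8*, a type II keratin, was at 6.71, 6.05 and 5.88 CPM in WT and 6.12, 4.88 and 4.95 CPM in KO. *Krt18*, its type I partner, was at 5.51, 4.04 and 4.57 CPM in WT and 4.16, 3.77 and 3.40 CPM in KO. Both overlapped between genotypes, with log2 fold changes of -0.22 (SE 0.10) and -0.32 (SE 0.12). The transcript of *Krt8* shares 17.1% of its windows with other genes, among them a pseudogene of *Krt8*.

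Other keratins grouped with simple epithelium did move. *Krt7*, a type II keratin of ducts and mesothelium, was at 27.1, 43.2 and 34.1 CPM in WT and 1.88, 1.57 and 1.28 CPM in KO, 22.0-fold lower. *Krt19*, the small type I keratin, had 355, 426 and 401 counts in WT, against 174, 119 and 123 in KO, 2.91-fold lower. Neither overlapped, and *Krt7* per kb was 1.12 to 1.98 times *Krt8* in WT and 0.0720 to 0.0896 times *Krt8* in KO. *Krt20*, known from Merkel cells and gut, was higher in KO, with 25, 11 and 22 counts in WT, against 56, 28 and 35 in KO. Its log2 fold change was 1.02 (SE 0.33), and the call was lost on leaving out any of WT replicates 2 and 3 or KO replicates 1 and 3, where it ranged from 0.68 to 1.13. Of 5 Merkel cell genes, *Krt20* was the only 1 called, where 16.7% of all genes tested were called. Their sum was 53.4 to 56.8 CPM in WT and 39.7 to 44.6 CPM in KO. Most of it was *Piezo2*, at 49.1 to 52.7 CPM in WT and 36.3 to 40.2 CPM in KO. Of 6 other simple epithelium genes, 4 were called lower and 0 higher, where 8.39% of all genes tested were called lower. Their sum was 106 to 145 CPM in WT and 18.0 to 18.7 CPM in KO. *Cdh1*, E-cadherin, at 66.6 to 95.4 CPM in WT the largest part, fell by 3.56 on the log2 scale. *Cldn7* (-0.31) and *Muc1* (0.28) were not called. Of 7 mesothelium genes, 4 of 6 tested were called lower, with a sum of 20.9 to 33.2 CPM in WT and 5.55 to 6.72 CPM in KO. *Upk3b*, an uroplakin, fell by 5.20 on the log2 scale, while *Wt1* (-0.66) and *Muc16* (-0.13) were not called. The part of these cell types in the keratin values was not tested.

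Of 7 inner root sheath keratins, 5 were tested and rose in KO. This sheath surrounds the growing hair and is made anew as follicles mature. The KO samples lay above the WT samples for each of the 5. *Krt25*, *Krt27*, *Krt71* and *Krt73* passed the filter on low counts through the KO samples alone, where they were high, so a call in the other direction was not open to them. *Krt72*, which had fewer counts in KO, did not pass the filter. The promoters of these 5 genes are shown first, with those of 3 keratins that fell, since genes that moved in opposite directions lie side by side in the same clusters. Each line gives the 80 bases before the RefSeq transcription start on GRCm38.p6, on the minus strand and read 5′ to 3′, with capitals for the letters TATAAA.
Krt25 (chr11:99322952-99323031, rose): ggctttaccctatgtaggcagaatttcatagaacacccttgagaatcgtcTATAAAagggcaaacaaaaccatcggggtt
Krt27 (chr11:99351119-99351198, rose): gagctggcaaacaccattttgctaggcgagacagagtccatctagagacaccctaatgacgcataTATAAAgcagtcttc
Krt28 (chr11:99374904-99374983, rose): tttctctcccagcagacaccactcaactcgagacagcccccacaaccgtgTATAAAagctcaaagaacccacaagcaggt
Krt71 (chr15:101743098-101743177, rose): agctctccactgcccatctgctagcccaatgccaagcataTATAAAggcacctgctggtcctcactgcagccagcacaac
Krt73 (chr15:101802361-101802440, rose): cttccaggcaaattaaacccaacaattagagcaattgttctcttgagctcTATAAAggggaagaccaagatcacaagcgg
Krt10 (chr11:99389365-99389444, fell): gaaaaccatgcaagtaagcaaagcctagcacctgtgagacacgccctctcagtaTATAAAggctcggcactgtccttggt
Krt5 (chr15:101712906-101712985, fell): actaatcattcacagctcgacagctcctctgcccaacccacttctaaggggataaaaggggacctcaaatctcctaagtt
Krt77 (chr15:101869706-101869785, fell): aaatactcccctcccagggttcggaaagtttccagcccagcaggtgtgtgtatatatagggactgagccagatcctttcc

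The letters TATAAA began at position -30 from the start in *Krt25*, *Krt28* and *Krt73*, at -15 in *Krt27*, at -40 in *Krt71* and at -26 in *Krt10*. They were absent from the windows of *Krt5* and *Krt77*. RefSeq gave 37 promoters for 36 of the 53 keratins. Searched on both strands over 250 bases before the start, TATAAA was present in 17 of the 37 and in 12.4% of 32851 promoters of all genes. The letters were in the promoters of 6 of 7 keratins called higher, 6 of 17 called lower, and 5 of 12 with neither call. Among those called lower, the match in *Krt84* was on the reverse strand at -206. Only the exact letters were counted, so close forms, such as gataaaa in *Krt5* and tatatata in *Krt77*, were not. These counts therefore do not say which promoters have a TATA box. Some RefSeq starts lay far from the annotated gene start, by 1518 bases in *Krt14* and 1360 in *Krt7*. With starts within 100 bases of it, the counts were 6 of 7, 6 of 15 and 5 of 11. TGANTCA, the form bound by AP-1 factors, was in 2 of the 37, both of them promoters of *Krt13*, and in 6.75% of all promoters. CTTTGAT, the form bound by TCF and LEF factors, was in 2 of the 37 and in 3.21% of all. These matches describe letters in the windows and not binding.

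*Krt28*, a type I keratin of the inner root sheath, had 23, 12 and 27 counts in WT, against 317, 220 and 198 in KO. Its log2 fold change was 3.55 (SE 0.26), or 12.0-fold higher. *Krt73*, a type II keratin of the sheath cuticle, had 7, 11 and 9 counts in WT, against 183, 149 and 143 in KO. Neither overlapped between genotypes, and only *Krt73* was near the limit of 3 counts in WT. *Krt25*, a type I member, had 3, 2 and 5 counts in WT, against 158, 99 and 115 in KO. The summed counts of *Krt25* differed 36.8-fold (95% exact interval 19.8 to 77.3). *Krt71*, the type II keratin of all sheath layers, had 5 to 12 counts in WT, against 72 to 82 in KO, 9.43-fold in summed counts (6.18 to 15.0). *Krt27*, type I, had 1 to 3 counts in WT, against 42 to 44 in KO, 18.3-fold (8.66 to 46.5). On the CPM scale all 5 were highest in KO replicate 1, the sample in which *Krt1* and *Krt10* were lowest. The class sum was 0.486, 0.448 and 0.578 CPM in WT and 8.42, 6.22 and 6.03 CPM in KO. *Krt26* had 0 to 3 counts in WT, against 5 to 11 in KO, *Krt72* had 3 in each WT sample and 0 to 1 in KO, and neither was tested.

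**Figure D4:**
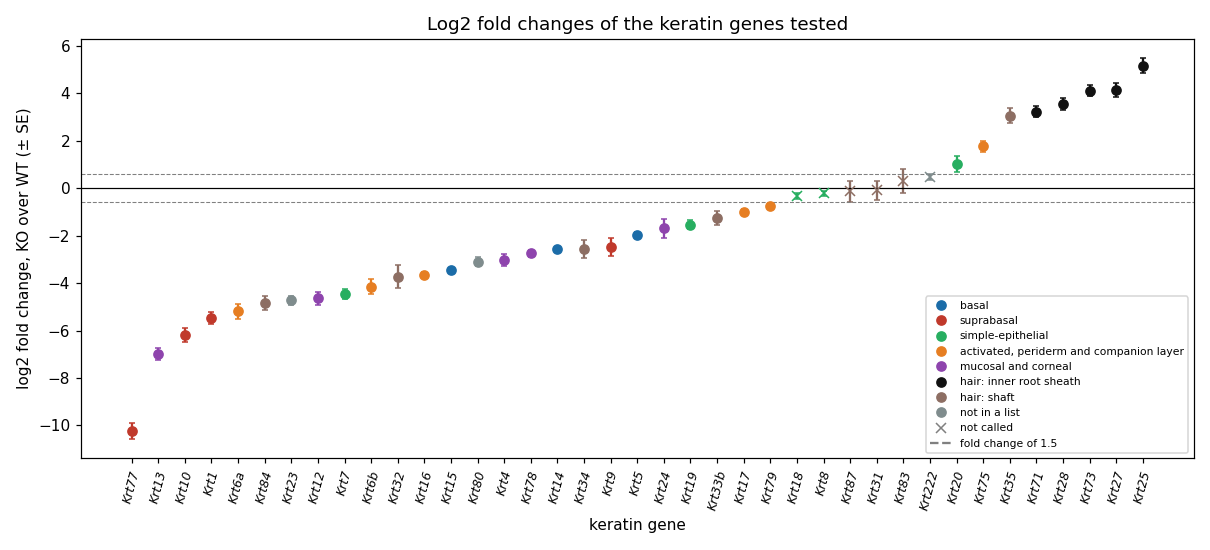
Log2 fold change of KO over WT for each keratin gene tested, from the lowest to the highest, with bars of 1 SE derived from edgeR's F statistic. Colors mark classes, crosses genes not called and dashed lines a fold of 1.5. *Krt2* is left out because its KO counts are 0. The 5 inner root sheath genes, *Krt35*, *Krt75* and *Krt20* lie above the upper line, and all basal and suprabasal genes shown lie below the lower one.

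Hair shaft keratins were scarce in both genotypes, with a summed level of 2.25, 2.32 and 2.53 CPM in WT and 1.75, 1.78 and 1.77 CPM in KO. Of 15 genes, 8 were tested, and 4 of these were called lower, 1 higher and 3 neither way. Over all genes tested, 8.39% were called lower and 8.31% higher. The 4 called lower passed the filter on low counts through WT samples alone, and the 1 called higher through KO samples alone. A call in the other direction was thus not open to them. *Krt35*, a type I keratin of the hair matrix and lower cortex, rose. It had 5, 6 and 17 counts in WT, against 92, 72 and 72 in KO, with a log2 fold change of 3.05 (SE 0.32), or 3.70 without WT replicate 3. *Krt84* had 57, 59 and 64 counts in WT, against 2, 1 and 3 in KO, a 30.4-fold difference in summed counts (95% exact interval 13.7 to 83.8). *Krt32* had 32 to 45 counts in WT, against 1 to 6 in KO, *Krt34* had 18 to 24 and 3 to 4, and *Krt33b* had 24 to 46 and 8 to 16. None of these overlapped between genotypes, and the call of *Krt32* rested on few KO counts, with a log2 fold change of -3.73 that went to -5.04 without KO replicate 2. *Krt31*, *Krt83* and *Krt87* were not called and their sign turned on leaving out 1 sample. The 7 members not tested had at most 13 counts in any sample.

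Few partners of hair keratins could be tested. Of 7 genes of the hair matrix and follicle, 5 were tested, and 2 were called lower and 0 higher. Over all genes tested, 16.7% were called, 8.39% lower and 8.31% higher. With 5 genes tested, 0 called higher is near that share, and nothing is read from it. *Tchh*, trichohyalin of the inner root sheath, was at 5.07 to 6.23 CPM in WT and 3.16 to 3.60 CPM in KO and fell by 0.70 on the log2 scale. *Foxn1*, a regulator of hair keratin genes, fell by 2.87 on that scale. *Shh*, a signal of the follicle bud, had a log2 fold change of -0.03 and was not called. Nor were *Msx2* (0.31) and *Hoxc13* (0.31). *Dsg4*, which was not tested, had 1 to 4 counts in WT, against 5 to 7 in KO. Of 57 keratin-associated protein genes, 35 had no count and 2 were tested, *Krtap3-2* and *Krtap13*, both called lower. *Krtap13* had 23, 258 and 91 counts in WT, against 0 in every KO sample. It passed the filter on low counts through WT samples alone, so a call in the other direction was not open to it. Melanocyte genes, of cells that pigment the follicle, had a sum of 22.3 to 31.9 CPM in WT and 23.2 to 28.6 CPM in KO, and 1 of 5 was called, *Tyrp1*, which rose by 1.08 on the log2 scale.

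Keratin genes lie in a pair of clusters, 27 on chromosome 11 (99232761 to 100269871, GRCm38), which holds type I genes, and 26 on chromosome 15 (101347444 to 102032027), which holds type II genes and the type I gene *Krt18*. Genes called in opposite directions were neighbours in both clusters. On chromosome 11, 6 of 18 neighbouring pairs of called genes were opposite, and on chromosome 15, 4 of 14. Genes not called were skipped in forming pairs, and some pairs lay far apart, such as *Krt75* and *Krt6b* at 102 kb. The number of opposite pairs for genes in random order was not computed. *Krt28*, which rose, ends the run of sheath genes and lies 10.35 kb from *Krt10*, which fell. *Krt73* lies 8.342 kb from *Krt2* and *Krt71* lies 21.05 kb from *Krt5*, each pair opposite in direction. *Krt35* lies 3.966 kb from *Krt32*, the closest of these opposite pairs. *Krt1* and *Krt77*, 7.936 kb apart, both fell.

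**Figure D5:**
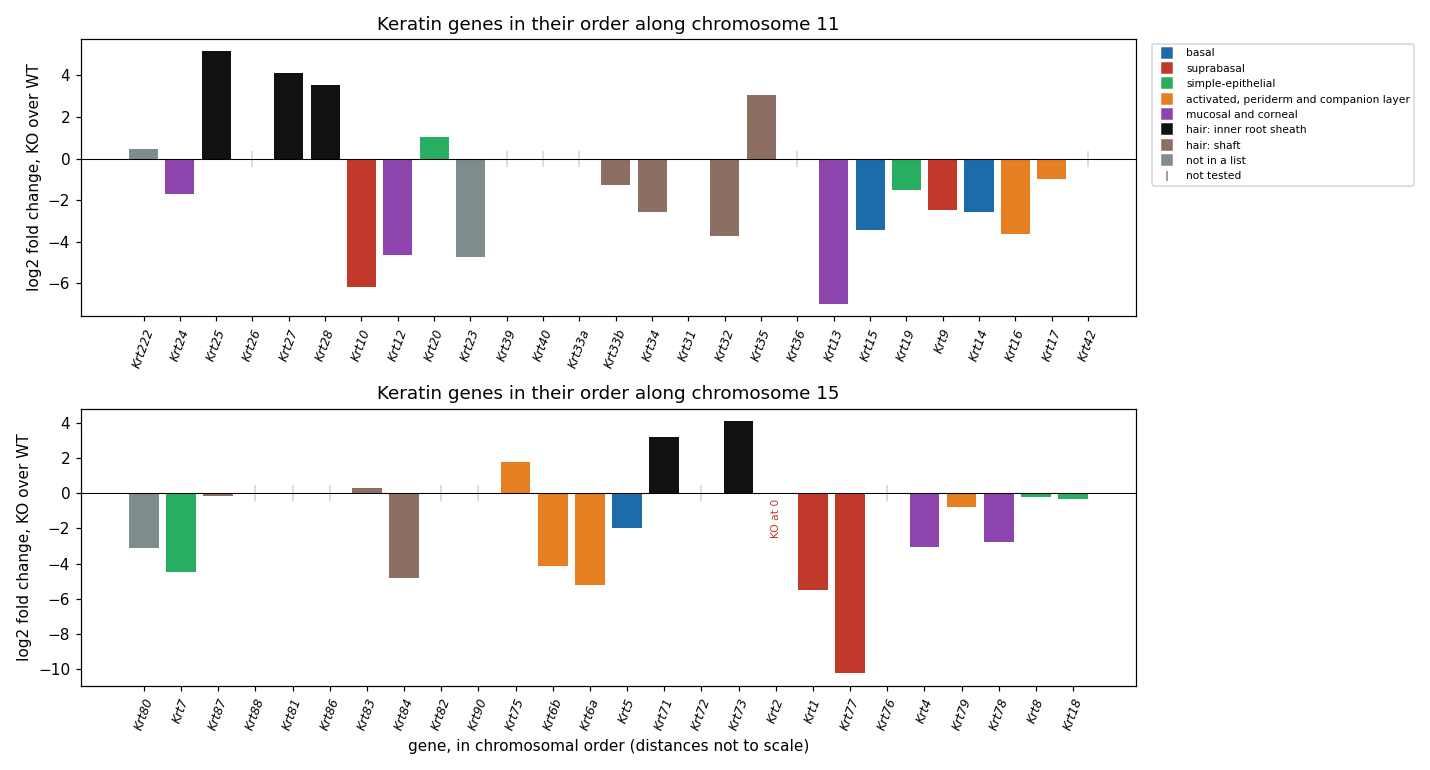
Log2 fold change of KO over WT for keratin genes in their order along chromosomes 11 and 15, colored by class, with ticks for genes not tested and *Krt2* marked as 0 counts in KO. Sheath genes pointing up stand beside *Krt10*, *Krt5* and *Krt2*, which fell.

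Genes that anchor, bundle or switch on keratins were then examined. Desmosome genes, which fasten keratin filaments between cells, were called lower in 11 of 11 cases, where 8.39% of all genes tested were called lower. Their median log2 fold change was -4.31, and their sum was 1846 to 2702 CPM in WT and 139 to 151 CPM in KO. *Dsp*, desmoplakin, fell by 5.04, *Perp* fell by 4.40, and *Dsc1*, the desmocollin of suprabasal cells, fell by 6.70 on the log2 scale. Hemidesmosome genes fasten basal keratins to the basement membrane. Of 6, 1 was called lower and 0 higher. For so short a list this is near the shares of all genes tested, 8.39% lower and 8.31% higher. The sum of the 6 was 852 to 931 CPM in WT and 949 to 1009 CPM in KO. *Col17a1*, the hemidesmosomal collagen, fell by 1.71 on the log2 scale. *Itgb4*, the integrin chain of the hemidesmosome, had a log2 fold change of -0.54, and *Plec* (0.30) and *Dst* (0.22), which muscle also uses, lay above 0, and none of these 3 was called.

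Genes of keratin bundling and the cornified envelope were called lower in 12 of 12 cases, where 8.39% of all genes tested were called lower. Their median log2 fold change was -3.66, and their sum was 5327 to 7539 CPM in WT and 514 to 585 CPM in KO. *Lor*, loricrin, fell by 4.26, *Hrnr* fell by 4.90, *Ivl*, involucrin, fell by 5.52 and *Tgm3*, a transglutaminase, fell by 5.06 on the log2 scale. Of 8 keratinocyte regulators, all were called lower, with a median of -2.26. *Zfp750*, a factor of late differentiation, fell by 4.51 and *Trp63*, the factor of basal cells, fell by 1.35 on that scale. The summed level of the regulators was 359 to 520 CPM in WT and 116 to 121 CPM in KO.

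Of 16 other intermediate filament genes, 2 were called lower, 2 higher and 12 neither way, with a median of 0.13, where 16.7% of all genes tested were called. *Des*, desmin of muscle, was at 870 to 883 CPM in WT and 1570.3 to 2004 CPM in KO and rose by 1.06 on the log2 scale, and *Synm*, synemin, rose by 1.32. *Vim*, vimentin of mesenchymal cells, was not called at 0.34. Neurofilament *Nefm* fell by 1.14. Of 6 dermal fibroblast genes, 1 was called lower, *Crabp1*, and 0 higher, with a sum of 27272 to 30213 CPM in WT and 33179 to 34266 CPM in KO, and *Col1a1* and *Col3a1*, the most abundant of them, are also made by fibroblasts of muscle. The part of skin tissue in the samples was not tested.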

How the data were processed

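RNA-seq of leg muscle from 3 WT and 3 *SYISL* KO fetuses was used. According to the processing notes, the authors trimmed reads with Trim Galore 0.6.6, mapped them to mm10 with HISAT2 2.2.1 and counted them per gene with featureCounts 2.0.1. They deposited raw counts, with no normalization. The annotation and strand setting are not given in the sources used here. Gene IDs were matched to GENCODE M21 without their version (55227 matched, 1035 did not), and *Krt85* was not matched. Promoters were taken from RefSeq on GRCm38.p6.

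Counts were fitted in R 4.3.3 with edgeR 4.0.16 (filterByExpr, TMM, quasi-likelihood F-test on genotype), with Benjamini-Hochberg adjustment over 22071 genes. The SE of a log2 fold change was derived as its absolute value divided by the square root of the F statistic. The code of the fit was also run on simulated counts with the same spread for all genes. That setting differs from these data, and nothing is read from the run. Alternatives were DESeq2 1.42.0, limma-voom (limma 3.58.1), other scalings and filters, a fold over 2, a replicate block and leaving out each sample. The longest transcript as the gene length was chosen after seeing the data. Deviations of same-numbered WT and KO samples correlated at -0.20, -0.13 and 0.047, so numbers were not taken as pairs.

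Members and lists were chosen with earlier results of these data known. Values per sample are given for each keratin with a mean of at least 5 CPM in either genotype, for any called against most of its class, and for any not called lower with a mean of at least 1 CPM. Others are given by range, except *Krt2*, *Krt19* and *Krt84*, whose values per sample were added after they were seen. Other lists name at most 4 genes by rule, the 2 highest and the 2 with the largest change. *Trp63*, *Myh3*, *Myog*, *Pax7*, *Cldn7*, *Muc1*, *Wt1*, *Muc16*, *Msx2*, *Hoxc13* and *Dsg4* were added after their values were seen.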

Additional observations from a re-analysis of the deposited data

How the results depend on the processing

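Over the refitted fold changes of keratin genes, 533 values kept their direction and side of the threshold. The count of keratins called lower (26) was 26 to 26 on leaving out 1 sample, and that called higher (8) was 7 to 8. With at least 10 counts in every sample only 23 keratins were tested, of which 17 were called lower and 3 higher. A fold over 2 left 774 of the 1835 genes called higher. Upper-quartile factors called 2188 genes higher and 1673 lower, and library size alone 1528 and 2088. The log2 ratio of the summed hair shaft keratins (-0.42) went to -0.35 and -0.49 under these scalings, and no keratin call moved with them. With the replicate block, 34 keratins were called, all 34 shared with the fit without it, and 1744 genes were called higher and 1777 lower. With the longest transcript as length, 13 of 17 keratins kept their rank in WT, and type I over type II was 0.877 in WT and 0.621 in KO. *Krt24* lost its call with DESeq2 (-1.73). *Krt20* lost its call in 4 of 6 fits that left out a sample (0.82, 1.04, 0.68 and 1.13). *Krt31* (-0.09) ranged from -0.60 to 0.18 on leaving out 1 sample and turned to 0.18 without KO replicate 1 and 0.037 without KO replicate 2. *Krt83* (0.30) turned to -0.15 without KO replicate 2 and went to 1.16 without WT replicate 3. *Krt87* (-0.14) ranged from -0.41 to 0.34 and turned to 0.34 without WT replicate 1 and 0.17 without KO replicate 2. The cause was not tested. Depth limits what can be said of the 13 keratins that were not tested.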
